A study of Mus musculus with 16 samples.

Results

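RNA-seq profiles of hippocampi from transgenic mice that expressed mutant human Tau and drank nicotinamide riboside (NR) were compared with those of wild-type (WT) mice that drank plain vehicle water. The question was which genes still differed from untreated WT mice after NR. The comparison held the 4 hTau.P301S + NR mice and the 4 WT mice, 8 of the 16 mice of the series, and covered the 16686 genes, of 54532 in the count table, that passed a filter on low counts. hTau.P301S mice carry the human Tau P301S transgene under the Thy1 promoter, which drives expression in neurons. NR was given at 6 mM in drinking water for 3 months, from 12 to 15 months of age, and the WT mice of this comparison received vehicle water over the same months. The other 8 mice of the series, 4 hTau.P301S mice on vehicle water and 4 WT + NR mice, took no part in the comparison and are used below to read the same genes in other animals. The labels give no sex, and nothing in them beyond the replicate numbers describes how the mice of a group were related, so that all p-values measure the spread among these samples.

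NR is a precursor of nicotinamide adenine dinucleotide (NAD), the cofactor that carries electrons in metabolism and is consumed by sirtuins and poly(ADP-ribose) polymerases. Tau is a neuronal protein that binds microtubules, and the P301S mutation makes it prone to aggregate. Microglia, the resident immune cells of the brain, switch on a characteristic set of genes around protein aggregates and dying neurons, and astrocytes raise intermediate filament and protease inhibitor genes. Processed pseudogenes are copies of spliced mRNAs that were inserted back into the genome, so that a short read from the parent gene and one from the copy can be nearly the same.

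The total counts per mouse ranged from 16490261 to 21915362 over the 16 mice. Markers of neighbouring tissue differed widely in level between the hippocampal libraries, and the source of their RNA was not tested. The summed level of 8 striatal neuron markers, in counts scaled to library size (CPM), ran from 147 to 1833 in WT mice, with WT 2 highest, and from 169 to 704 in hTau.P301S + NR mice, with mouse 4 highest. The 11 choroid plexus markers summed to between 24.8 and 8217 CPM in WT mice and to between 70.1 and 3649 CPM in hTau.P301S + NR mice. Ddx3y, a gene of the Y chromosome, was present in 1 of 4 WT mice and in 3 of 4 hTau.P301S + NR mice. Among the other 8 mice, hTau.P301S 1 stood apart, with 14.4% of its counts from mitochondrial genes against 4.48% to 7.07% in the remaining 15 mice, and WT + NR 1 showed several genes at levels otherwise seen in hTau.P301S mice. Log2 fold changes and list medians from those 8 mice are given with and without these 2 libraries, which were picked out after their values were seen.

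Relative to WT mice, 15 genes were up-regulated and 2 were down-regulated in hTau.P301S + NR mice. The up-regulated genes were 12 processed pseudogenes, a long noncoding RNA gene, and the protein-coding genes Folh1 and Tuba1c, whereas the down-regulated genes were Tdg and Ccl27a, both protein coding. Differentially expressed genes (DEGs) had an adjusted p under 0.05 in edgeR's quasi-likelihood test and a log2 fold change beyond 0.5 in either direction, limits taken from the study. The 17 DEGs were 0.102% of the genes tested, with 0.0899% up-regulated and 0.012% down-regulated. At an unadjusted p under 0.05, 588 genes (3.52%) were higher and 830 genes (4.97%) were lower in hTau.P301S + NR mice. The median log2 fold change over all genes was -0.02. Pseudogenes made up 70.6% of the DEGs, against 3.91% of the genes tested. With the same 8 mice, DESeq2 called 118 genes, 65 of them higher and 53 lower, of which 16 were among the 17.

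**Figure D1:**
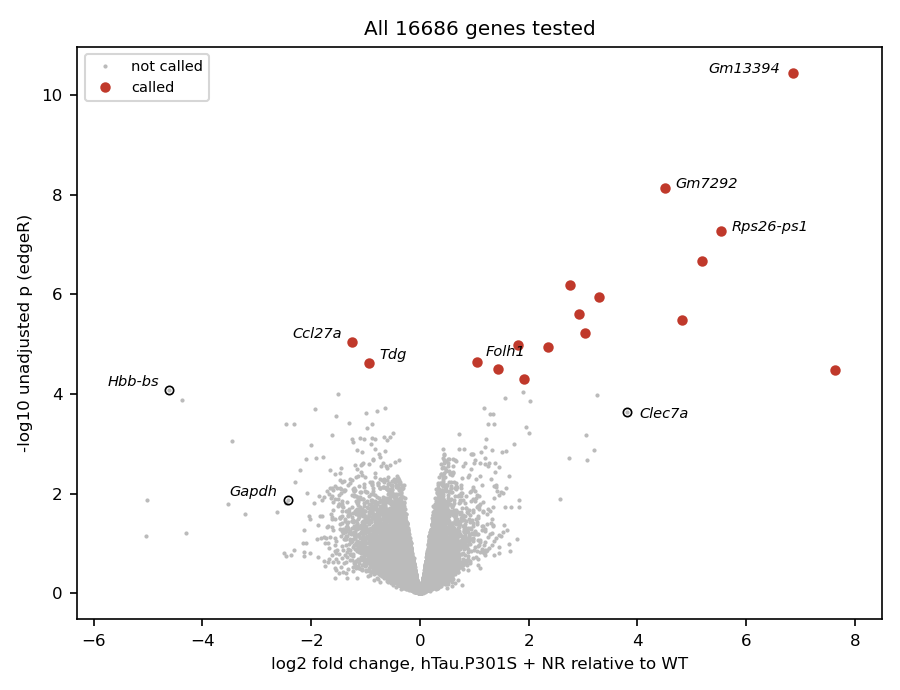
Log2 fold change of each of the 16686 genes in hTau.P301S + NR relative to WT mice (x axis) against the negative log10 of edgeR's unadjusted p (y axis). The 17 DEGs are red, 15 on the right and 2, Tdg and Ccl27a, on the left, and open rings mark Hbb-bs, Gapdh and Clec7a, which were not called.

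Because 12 of the 17 DEGs are pseudogenes, matching stretches of the copies and of their nearest protein-coding genes are shown for 5 pairs, which include Gm13394, the DEG with the smallest p, and the pairs of the DEG Tdg and of the parents Psmb5 and Mrpl48. The stretches are 90 bases of GENCODE M21 transcripts on GRCm38, written 5′ to 3′ on the transcript strand, with capitals at the bases that differ between the pair. Positions are counted from 1 at the 5′ end of the printed stretch, with the base of the parent gene first.

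The Gapdh stretch ends at coding base 390 and lies on the minus strand within chr6:125162972-125163159, and the Gm13394 stretch lies at chr2:28934220-28934309, minus strand. They differ by A46C, the only mismatch in 1000 aligned bases.
Gapdh: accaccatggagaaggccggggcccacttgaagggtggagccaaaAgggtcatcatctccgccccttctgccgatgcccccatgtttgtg
Gm13394: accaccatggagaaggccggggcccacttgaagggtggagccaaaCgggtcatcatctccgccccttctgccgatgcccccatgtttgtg

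The Tdg stretch covers coding bases 1038 to 1127, on the plus strand within chr10:82648065-82648653, and the Gm9855 stretch lies at chr10:42054180-42054269, minus strand. They differ by T19C, G47A, A53G and G64A, 4 of the 9 mismatches in 1194 aligned bases.
Tdg: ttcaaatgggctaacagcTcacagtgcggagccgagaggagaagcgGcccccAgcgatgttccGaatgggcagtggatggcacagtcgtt
Gm9855: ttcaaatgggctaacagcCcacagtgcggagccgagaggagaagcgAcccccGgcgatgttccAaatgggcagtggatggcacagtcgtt

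The Psmb5 stretch covers coding bases 378 to 467, on the minus strand at chr14:54616553-54616642, and the Gm3375 stretch lies at chr7:3181471-3181560, plus strand. They differ by T10A, C40T and T88C.
Psmb5: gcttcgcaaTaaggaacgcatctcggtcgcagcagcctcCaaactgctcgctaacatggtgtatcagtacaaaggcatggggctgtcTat
Gm3375: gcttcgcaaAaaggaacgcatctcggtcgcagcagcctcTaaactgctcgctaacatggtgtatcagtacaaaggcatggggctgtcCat

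The Mrpl48 stretch covers coding bases 361 to 450, on the minus strand within chr7:100552600-100559755, and the Mrpl48-ps stretch lies at chr4:88599361-88599450, minus strand. They differ by C9T, G15A, G33A, G44A, G48A, A82G and C89G.
Mrpl48: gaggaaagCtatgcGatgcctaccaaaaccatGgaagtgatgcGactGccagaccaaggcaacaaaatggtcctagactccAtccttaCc
Mrpl48-ps: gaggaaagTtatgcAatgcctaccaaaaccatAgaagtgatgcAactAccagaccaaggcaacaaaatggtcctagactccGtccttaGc

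The Rpsa stretch covers coding bases 169 to 258, on the plus strand within chr9:120129193-120130123, and the Rpsa-ps10 stretch lies at chr3:150073285-150073374, minus strand. They differ by T42C and C51T.
Rpsa: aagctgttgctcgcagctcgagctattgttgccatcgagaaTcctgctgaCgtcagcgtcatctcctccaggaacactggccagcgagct
Rpsa-ps10: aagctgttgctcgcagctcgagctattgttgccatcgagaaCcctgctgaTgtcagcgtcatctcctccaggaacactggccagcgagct

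Each of the 12 pseudogenes was higher in all 4 hTau.P301S + NR mice than in every WT mouse. Gm13394, a copy of the glycolytic gene Gapdh, was at 1.42, 1.90, 2.05 and 1.67 CPM in WT mice and at 180, 247, 170 and 226 CPM in hTau.P301S + NR mice. The groups were 1.76 ± 0.275 and 206 ± 36.6 CPM (SD, n = 4), far from overlapping, with a log2 fold change of 6.86 (SE 0.20, edgeR adjusted p = 5.96e-07). Rpsa-ps10, a copy of the gene for a small-subunit ribosomal protein, was at 15.4, 34.0, 18.7 and 18.6 CPM in WT mice and at 138, 158, 145 and 144 CPM in hTau.P301S + NR mice. WT 2 was the highest of its group and still lay well below the lowest treated mouse, and the log2 fold change was 2.76 (SE 0.24, edgeR adjusted p = 0.0022). Rps26-ps1, also a ribosomal protein copy, ranged from 0.685 to 1.48 CPM in WT mice and from 28.3 to 72.4 CPM in hTau.P301S + NR mice, and its log2 fold change was 5.53 (edgeR adjusted p = 2.95e-04).

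Gm9855, the copy of the DNA repair gene Tdg, was at 0.383, 0.504, 0.421 and 0.864 CPM in WT mice and at 5.15, 5.63, 5.88 and 4.85 CPM in hTau.P301S + NR mice, and its log2 fold change was 3.29 (SE 0.30, edgeR adjusted p = 0.0031). Gm3375, the copy of the proteasome subunit gene Psmb5, was at 1.26, 2.29, 2.53 and 1.62 CPM in WT mice and at 10.7, 18.9, 11.9 and 17 CPM in hTau.P301S + NR mice, and its log2 fold change was 2.92 (SE 0.29, edgeR adjusted p = 0.0058). Neither pair of groups overlapped. Gm6969, a copy of Cox7a2l, Gm10020, a copy of the ribosomal protein gene Rpl15, and Gm19963, whose nearest coding gene is Lacc1, had log2 fold changes of 4.82, 5.19 and 3.03. Gm7335, a copy of Scoc, Gm5436, a copy of the ATP synthase gene Atp5o, and Mrpl48-ps, a copy of a mitochondrial ribosomal protein gene, had log2 fold changes of 2.36, 1.81 and 1.91. Mrpl48-ps lost its call without any 1 of the 8 mice (edgeR adjusted p of 0.0642 to 0.194), Gm5436 without WT 1, WT 4 or any 1 of the treated mice (0.0625 to 0.108) and Gm7335 without WT 4 or without treated mouse 1, 2 or 3 (0.0561 to 0.0927).

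AC154540.2, a copy of the ribosomal protein gene Rps3, had no count in any WT mouse and 40, 23, 19 and 22 counts in the hTau.P301S + NR mice. Set against a floor of 3 counts over the whole WT group, it was at least 31.9-fold higher. The call of AC154540.2 did not survive the loss of WT 1 or WT 4, or of any 1 of the 4 hTau.P301S + NR mice, with edgeR adjusted p between 0.0642 and 0.181. Gm7292, annotated as a long noncoding RNA gene, was at 2.90, 1.85, 3.32 and 1.94 CPM in WT mice and at 59.7, 51.0, 70.6 and 47.0 CPM in hTau.P301S + NR mice, and its log2 fold change was 4.51 (SE 0.23, edgeR adjusted p = 6.0e-05). Its transcript matched no protein-coding transcript over more than 150 bases, and it was the DEG with no coding parent among the noncoding ones.

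**Figure D2:**
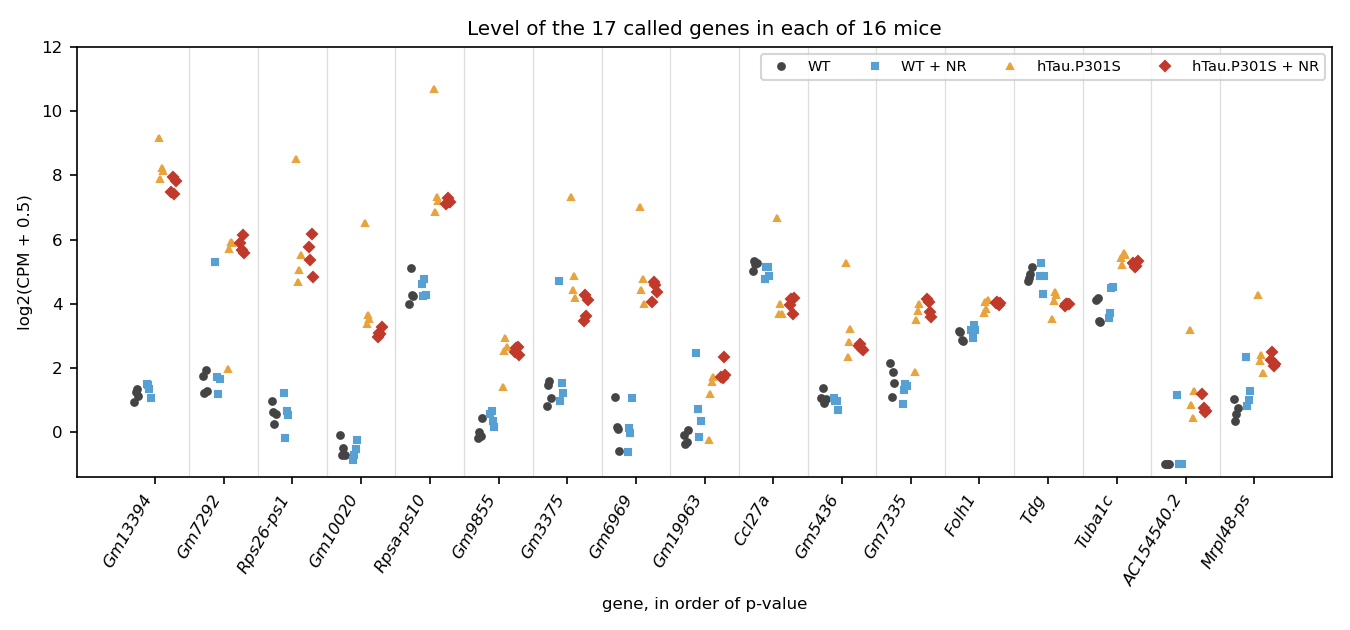
Level of the 17 DEGs, as log2(CPM + 0.5), in each of the 16 mice, by group, with genes in order of p. The hTau.P301S + NR mice lie above the WT mice at 15 genes and below them at Tdg and Ccl27a; WT + NR 1 and hTau.P301S 1 depart from their groups at several genes.

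Most parents of the pseudogenes had lower means in the same mice. The parent mean was lower in hTau.P301S + NR than in WT mice for 11 of 12 pairs, and 6 of these parents were at an unadjusted p under 0.05, against a background of 4.97% of all genes. Rps26, Rpl15, Rpsa and Rps3 are ribosomal protein genes, of which 80 of 84 tested had a lower estimate. Atp5o and Cox7a2l belong to the respiratory chain list, where 80 of 82 did. Among these parents Rpsa was at an unadjusted p under 0.05 and the others were not. The parent groups did not overlap for Gapdh, Tdg, Psmb5, Scoc and Mrpl48, where 2.77% of all genes were lower without overlap. Psmb5, a catalytic subunit of the proteasome, was at 92.0, 105, 82.6 and 63.5 CPM in WT mice and at 36.9, 55.2, 43.7 and 51.3 CPM in hTau.P301S + NR mice (log2 fold change -0.87, SE 0.18, edgeR adjusted p = 0.25). Mrpl48 was at 54.6, 60.9, 52.8 and 48.4 CPM in WT mice and at 37.0, 39.9, 38.4 and 31.9 CPM in hTau.P301S + NR mice (log2 fold change -0.56, SE 0.11, edgeR adjusted p = 0.25). Of these parents, Tdg alone passed the adjusted test.

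The share of each pair counted to the pseudogene did not overlap between WT and hTau.P301S + NR mice, a separation that the choice of these pseudogenes fixed. In the mice outside the comparison, the shares did not overlap between hTau.P301S and WT + NR mice for 8 of the 12 pairs. They overlapped for Gm3375, Gm19963, AC154540.2 and Mrpl48-ps. Rpsa-ps10 took 3.49% to 5.87% of the pair's summed CPM in WT mice and 4.63% to 5.39% in WT + NR mice, but 30.7% to 34.6% in hTau.P301S + NR mice and 32.4% to 36.2% in hTau.P301S mice. Gm9855 took 1.40% to 2.42% and 2.11% to 3.90% in the WT and WT + NR mice, and 23.9% to 27.4% and 16.1% to 26.5% in the hTau.P301S + NR and hTau.P301S mice. For Gm3375 the corresponding ranges were 1.35% to 2.97%, 1.87% to 27.1%, 21.4% to 25.5% and 24.3% to 28%. WT + NR 1 was the mouse at 27.1%, while the other 3 WT + NR mice were at 1.87% to 2.76%.

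**Figure D3:**
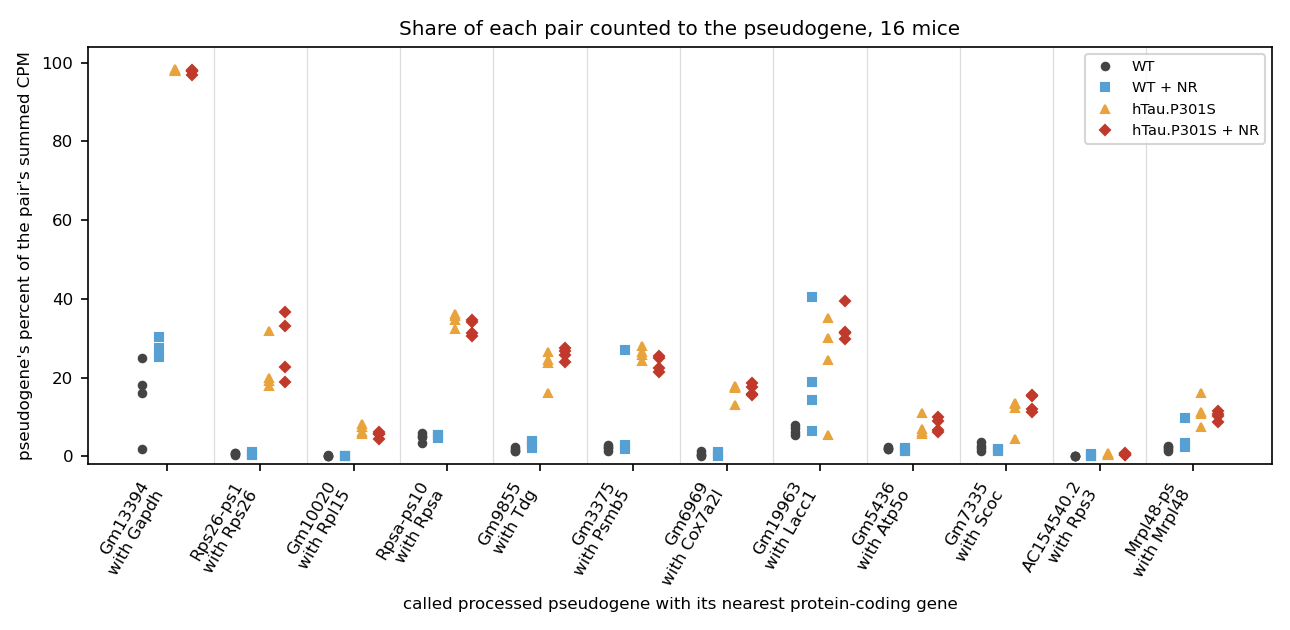
Percent of the summed CPM of each pair that was counted to the pseudogene (y axis), for the 12 pseudogene and parent pairs (x axis), in each of the 16 mice by group. Hippocampi of hTau.P301S mice, with and without NR, sit together above those of WT mice at Rpsa-ps10 and Gm9855.

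Summing a pair removed most of the difference at Rpsa and Rps26, but not at Gapdh or Lacc1. Gapdh with Gm13394 had a log2 fold change of 2.95 (SE 0.73, edgeR adjusted p = 0.43). Lacc1 with Gm19963 had 0.75 (SE 0.18, edgeR adjusted p = 0.43). In WT mice the ribosomal protein parents held most counts of their pairs, so that their sums cannot show how reads were divided. Rpsa and Rpsa-ps10 together came to 452 ± 166 CPM in WT and 447 ± 22.3 CPM in hTau.P301S + NR mice (SD, n = 4), with a log2 fold change of -0.01 (SE 0.22), and that of Rps26 and Rps26-ps1 had a log2 fold change of 0.04 (SE 0.25). The summed Tdg and Gm9855 level still went lower, with a log2 fold change of -0.53 (SE 0.12, edgeR adjusted p = 0.43). Fitted on such sums, an alternative chosen after seeing the data, 1 gene remained called, Gm7292, and 0 of the 12 summed pairs passed, where 1403 of 16674 genes and sums were at an unadjusted p under 0.05. Folh1, Tuba1c and Ccl27a, which belong to no summed pair, lost the call too. Their adjusted p depends on all genes tested together, the pseudogenes among them. How the authors' counting divided reads between near-identical copies is not given in the sources used here, and the part of that division in the pseudogene values was not tested.

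Gapdh itself had few counts. It was at 78.5, 5.71, 9.22 and 8.80 CPM in WT mice and at 3.72, 4.74, 5.54 and 5.0 CPM in hTau.P301S + NR mice. WT 1 stood far above the other 7 mice, and the remaining 3 WT mice were slightly above the treated ones. The summed level of Gapdh and the 224 pseudogenes in the table that shared at least 100 stretches of 21 bases with it was 56.4 to 112 CPM in WT mice and 52.6 to 63.6 CPM in WT + NR mice. In hTau.P301S + NR mice it was 209 to 294 CPM and in hTau.P301S mice 275 to 680 CPM, higher in all 8 transgenic mice than in all 8 WT mice. The DEG Gm13394 is part of this sum. Gapdh and Gm13394 alone came to 176 to 252 CPM in hTau.P301S + NR mice and 239 to 580 CPM in hTau.P301S mice. They came to 7.61 to 79.9 CPM in WT mice and 6.26 to 8.73 CPM in WT + NR mice. The separation of the sum thus rested on a gene chosen for its difference, and it does not show how the other pseudogenes went.

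Among protein-coding genes, Folh1 and Tuba1c rose. Folh1 (ENSMUSG00000001773, chr7:86718977-86775943 on GRCm38), which encodes the peptidase that cleaves N-acetylaspartylglutamate to release glutamate, was at 8.48, 8.23, 6.90 and 6.75 CPM in WT mice and at 15.7, 16.1, 15.2 and 15.8 CPM in hTau.P301S + NR mice. All 4 treated mice lay in a narrow band above the WT mice, and the log2 fold change was 1.05 (SE 0.14, edgeR adjusted p = 0.028). Tuba1c (ENSMUSG00000043091, chr15:99029891-99038110), an alpha-tubulin gene whose product builds the microtubules to which Tau binds, was at 16.8, 17.6, 10.6 and 10.4 CPM in WT mice and at 38.1, 34.9, 36 and 39.8 CPM in hTau.P301S + NR mice. WT 1 and WT 2 were above WT 3 and WT 4 but below every treated mouse, and the log2 fold change was 1.43 (SE 0.19, edgeR adjusted p = 0.034). Its near-identical relatives Tuba1a and Tuba1b, looked up after these values were seen, had log2 fold changes of -0.15 (SE 0.16) and -0.18 (SE 0.18).

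Tdg and Ccl27a fell. Tdg (ENSMUSG00000034674, chr10:82629828-82650799), a glycosylase that removes mismatched thymine from DNA, was at 25.8, 27.3, 29.8 and 34.9 CPM in WT mice and at 14.8, 15.4, 15.6 and 15.5 CPM in hTau.P301S + NR mice. The treated mice were tightly grouped below every WT mouse, and the log2 fold change was -0.94 (SE 0.12, edgeR adjusted p = 0.028). Ccl27a (ENSMUSG00000073888, chr4:41769467-41774247), a chemokine gene, was at 32.1, 40.1, 37.1 and 38.6 CPM in WT mice and at 15.0, 17.4, 12.3 and 17.5 CPM in hTau.P301S + NR mice. The groups did not overlap, and the log2 fold change was -1.25 (SE 0.14, edgeR adjusted p = 0.015). Within 1 Mb of Tdg, 25 other genes were tested, of which 2 were higher and 4 lower at an unadjusted p under 0.05. That is 24.0% of them, against 8.5% of all genes. Of 27 neighbours of Ccl27a, 1 was higher and 1 lower (7.41%). At Tuba1c 0 of 50 neighbours reached that limit, at Folh1 0 of 1 and at Gm7335 0 of 9. These counts are small, and whether the neighbours of a DEG differ as a group was not tested.

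With 7 mice in place of 8, the calls of these 4 genes were not stable. Folh1 and Tuba1c each lost the call without WT 1, WT 3 or WT 4 or any 1 of the 4 hTau.P301S + NR mice, with edgeR adjusted p of 0.054 to 0.167 for Folh1 and 0.061 to 0.167 for Tuba1c. Tdg lost it without WT 3 or WT 4 or any 1 of the treated mice, with edgeR adjusted p of 0.0705 to 0.187. Ccl27a lost it without WT 4, hTau.P301S + NR 1 or hTau.P301S + NR 2, with edgeR adjusted p of 0.0692, 0.115 and 0.0577.

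The same genes were then read in the 8 mice that the comparison did not use. There, hTau.P301S mice on vehicle water were set against WT + NR mice, so that the genotypes differed in the same direction while NR went the other way. Of the 15 up-regulated genes, 12 were higher at an unadjusted p under 0.05 in those 8 mice, where 2.35% of the 16371 genes tested were, and 1 gene, Gm13394, passed the adjusted test (0.00611% of genes). Of the down-regulated genes, Tdg was lower at an unadjusted p under 0.05, where 3.95% of genes were, and Ccl27a was not. Gm13394 was at 568, 234, 297 and 282 CPM in hTau.P301S mice and at 2.31, 2.29, 2.07 and 1.58 CPM in WT + NR mice. Gm7292, in contrast, was at 3.41, 51.9, 59.8 and 58.9 CPM in hTau.P301S mice and at 39.0, 2.78, 1.77 and 2.65 CPM in WT + NR mice, so that mouse 1 of each group sat with the opposite genotype at this gene.

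Without hTau.P301S 1 and WT + NR 1, a choice made after seeing the data, 10 genes of 16494 were called (0.0606%). Of these, 9 were among the 17 DEGs, namely Gm13394, Gm7292, Rps26-ps1, Gm10020, Rpsa-ps10, Gm9855, Gm3375, Gm6969 and Gm7335, and the other was Rpl15-ps2, a ribosomal protein pseudogene. WT + NR 1 had been set apart by its levels at several of these genes, such as Gm7292 and Gm3375, and hTau.P301S 1 also departed at Gm7292. At such genes the overlap was partly fixed by leaving these mice out. Gm7292 then had a log2 fold change of 4.55 (SE 0.20, edgeR adjusted p = 2.59e-04), against 1.88 (SE 1.15) with all 8 mice. Folh1 had 0.86 (SE 0.18), Tuba1c 1.17 (SE 0.24), Tdg -0.67 (SE 0.24) and Ccl27a -1.32 (SE 0.16) in those 6 mice, with edgeR adjusted p of 0.32, 0.277, 0.437 and 0.0601. With all 8 mice the same genes had 0.79 (SE 0.19), 1.32 (SE 0.26), -0.82 (SE 0.27) and 0.15 (SE 0.68). Tuba1c was at 36.9 to 47.3 CPM in all 4 hTau.P301S mice and at 11.2 to 22.5 CPM in WT + NR mice. Ccl27a was at 101 CPM in hTau.P301S 1 against 12.4 to 15.5 CPM in the other 3.

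Beyond the DEGs, of the genes higher at an unadjusted p under 0.05 in hTau.P301S + NR relative to WT mice, 580 were tested in the other mice. With all 8 of those mice, 270 of the 580 had a higher and 310 a lower estimate, with a median of -0.04. At an unadjusted p under 0.05, 9.83% of them were higher, against 2.31% of all genes tested in both, and 2.93% were lower. Of the 803 genes lower in hTau.P301S + NR mice that were tested there, 315 had a lower and 488 a higher estimate, with a median of 0.21, and 7.72% were lower at that limit, against 3.96% of all genes. Without the 2 libraries, 16.9% of the first set were higher, against 4.03%, and 13.9% of the second were lower, against 6.71%.

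The remaining comparisons share mice with the first and are given side by side. Tuba1c had a log2 fold change of 1.64 (SE 0.23) in hTau.P301S relative to WT mice, -0.21 (SE 0.15) with NR relative to without NR in hTau.P301S mice and 0.31 (SE 0.29) with NR relative to without NR in WT mice. Folh1 had 0.97 (SE 0.20), 0.07 (SE 0.16) and 0.17 (SE 0.17), and Tdg had -0.83 (SE 0.22), -0.12 (SE 0.20) and -0.02 (SE 0.20) in the same order. The test of whether NR acted differently in the 2 genotypes (edgeR, 16 mice) called 0 of 17555 genes, with 1390 at an unadjusted p under 0.05 and a smallest adjusted p of 0.172.

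The mouse Tau gene overlapped between the groups, and Thy1, whose promoter drives the transgene, lay higher without passing the test. Mapt was at 438, 369, 446 and 447 CPM in WT mice and at 480, 424, 452 and 483 CPM in hTau.P301S + NR mice, with overlapping groups and a log2 fold change of 0.12 (SE 0.11, edgeR adjusted p = 0.75). These are counts of the mouse gene's entry, and the human transgene has no entry of its own in the count table. Whether reads from the transgene were counted to Mapt or Thy1 was not tested. Thy1 was at 475, 462, 633 and 540 CPM in WT mice and at 666, 712, 844 and 708 CPM in hTau.P301S + NR mice, without overlap, and its log2 fold change of 0.48 (SE 0.14, edgeR adjusted p = 0.49) did not pass the test. Thy1 had a log2 fold change of 1.09 in the other 8 mice (edgeR unadjusted p = 0.0032), or 0.91 without the 2 libraries (edgeR unadjusted p = 0.0013).

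Eva1c, which encodes a membrane protein that the study follows, and its chaperone partners showed no call. Eva1c was at 2.57, 2.69, 2.63 and 2.48 CPM in WT mice and at 1.70, 2.61, 1.40 and 2.09 CPM in hTau.P301S + NR mice, with a log2 fold change of -0.41 (SE 0.25, edgeR adjusted p = 0.64) and hTau.P301S + NR 2 inside the WT range. Bag1, a cochaperone of heat shock protein 70, had a log2 fold change of -0.11 (SE 0.12). The heat shock protein 70 genes Hspa8, Hspa1a and Hspa1b had -0.19 (SE 0.12), -0.44 (SE 0.22) and 0.04 (SE 0.26).

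None of the gene lists described from here on holds a gene that passed the adjusted test, except the ribosomal protein pseudogenes, so that their members are given by values and by counts at an unadjusted p under 0.05. All of these lists were drawn up with earlier results of these data known. Over all genes tested, 3.52% were higher and 4.97% lower at that limit, the shares that belong beside each such count in the main comparison. In bulk tissue, fewer cells of a type and less RNA per cell cannot be told apart.

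**Figure D4:**
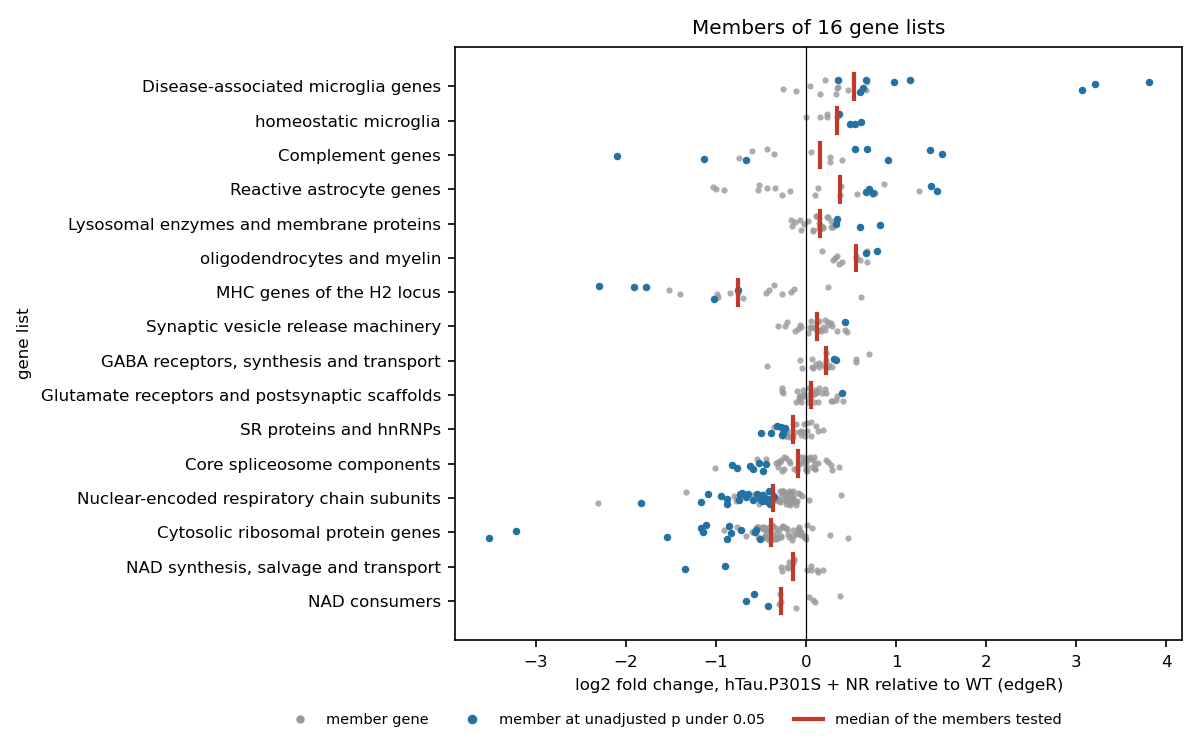
Log2 fold change in hTau.P301S + NR relative to WT mice (x axis) for each tested member of 16 gene lists (y axis), with the members at an unadjusted p under 0.05 in blue and the median of each list as a red line. Microglial, astrocyte and myelin lists lie to the right of 0, and the H2, respiratory chain and ribosomal protein lists to the left.

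Microglial genes lay higher in hTau.P301S + NR mice. Of 20 genes of disease-associated microglia, 18 had a higher and 2 a lower estimate, 9 were higher and 0 lower at an unadjusted p under 0.05 (backgrounds of 3.52% and 4.97%), 5 were higher without overlap (background 2.79%), and the median log2 fold change was 0.53, or 0.35 without hTau.P301S + NR 1. Clec7a, a receptor for fungal glucans that microglia induce near pathology, was at 1.42, 0.616, 0.105 and 0.594 CPM in WT mice and at 18.9, 4.80, 8.17 and 6.55 CPM in hTau.P301S + NR mice. The groups did not overlap, hTau.P301S + NR 1 was the highest mouse, and the log2 fold change was 3.81 (SE 0.66, edgeR adjusted p = 0.13). Itgax, an integrin subunit, and Cst7, a cysteine protease inhibitor, had log2 fold changes of 3.06 (SE 0.62) and 3.21 (SE 0.71). Cd68, a lysosomal glycoprotein of phagocytes, was at 6.62, 10.1, 5.90 and 8.70 CPM in WT mice and at 20.5, 12.7, 14.8 and 13.5 CPM in hTau.P301S + NR mice (log2 fold change 0.98, SE 0.22).

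Homeostatic microglial markers lay higher in the same mice. All 9 markers had a higher estimate and 4 were at an unadjusted p under 0.05 (background 3.52%), with a median log2 fold change of 0.35, or 0.20 without WT 3. Their summed level was 255 to 337 CPM in WT mice and 329 to 458 CPM in hTau.P301S + NR mice. Cx3cr1, the fractalkine receptor, was at 63.2, 53.2, 46.7 and 51.9 CPM in WT mice and at 98, 65.8, 82.1 and 81.3 CPM in hTau.P301S + NR mice (log2 fold change 0.61, SE 0.14), and Sall1, a transcription factor of resident microglia, had 0.48 (SE 0.14). In the other 8 mice, 1 of the 20 disease-associated genes was higher and 0 lower at an unadjusted p under 0.05 (background 2.35% higher), with a median of 1.13, and Cx3cr1 had -0.33 and Sall1 -0.44. Without the 2 libraries, 18 of the 20 had a higher estimate and 6 were higher at that limit (background 4.07%), with a median of 0.30, whereas Cx3cr1 had 0.15 and Sall1 -0.24. The 9 homeostatic markers as a list had a median of 0.29 in the other 8 mice, with 0 at that limit. Without the 2 libraries their median was 0.12, with 8 higher and 1 lower estimate and 1 higher at that limit.

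Complement genes went both ways. Of 16 tested, 5 were higher and 3 lower at an unadjusted p under 0.05, with a median of 0.16 that lay between 0.01 and 0.23 with each mouse left out, lowest without WT 3. C4b, the classical pathway component, was at 113, 67.8, 50.1 and 115 CPM in WT mice and at 394, 187, 236 and 168 CPM in hTau.P301S + NR mice, without overlap (log2 fold change 1.51, SE 0.34, edgeR adjusted p = 0.34). C1qa, a chain of the initiating C1q complex, had a log2 fold change of 0.67 (SE 0.16), and C3ar1, the receptor of the C3a fragment, had 1.38 (SE 0.34). C1s1, the protease of the C1 complex, was at 2.13, 0.671, 1.05 and 1.51 CPM in WT mice and at 0.448, 0.313, 0.112 and 0.340 CPM in hTau.P301S + NR mice (log2 fold change -2.10, SE 0.50).

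**Figure D5:**
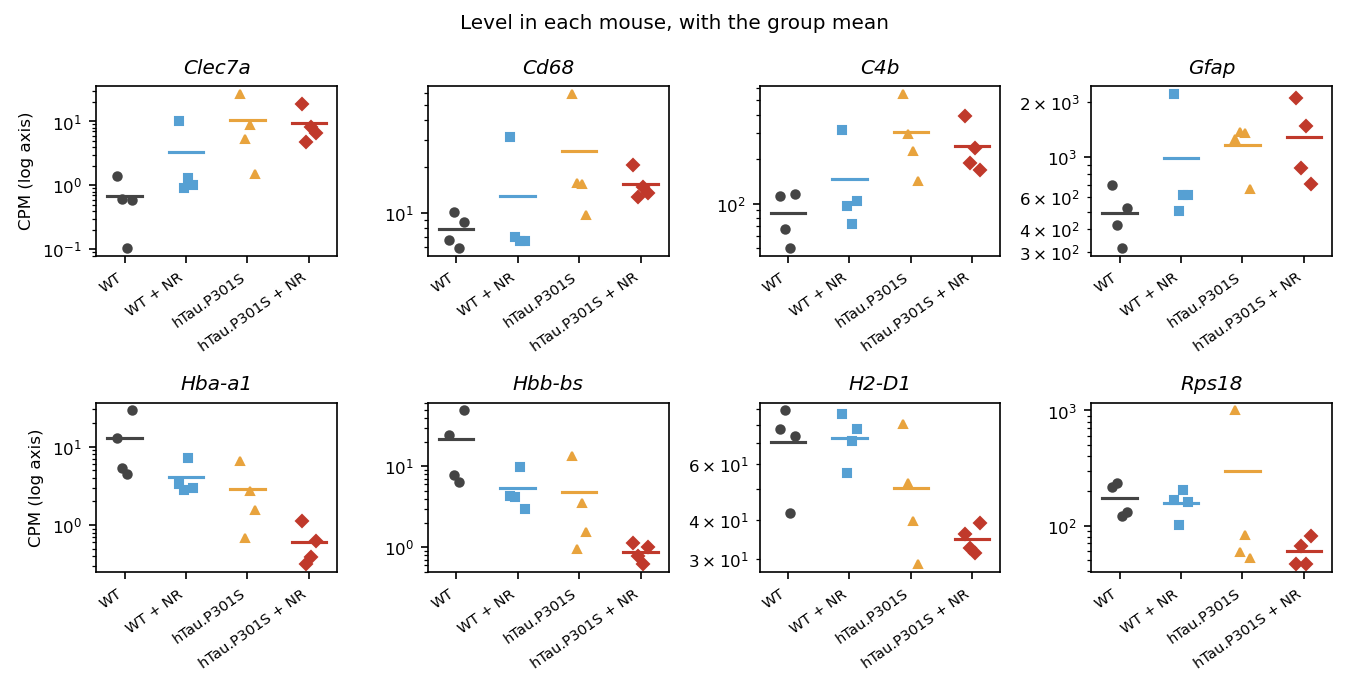
CPM (log axis) of Clec7a, Cd68, C4b, Gfap, Hba-a1, Hbb-bs, H2-D1 and Rps18 in each of the 16 mice, with the group means as lines. The hTau.P301S + NR mice lie above the WT mice at the first 4 genes and below them at the last 4, and WT + NR 1 is above the other WT + NR mice at the first 4.

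Astrocyte genes lay higher with a wide spread between mice. Of all genes, 3.52% were higher and 4.97% lower at an unadjusted p under 0.05. Of 23 reactive astrocyte genes, 5 were higher and 0 lower at an unadjusted p under 0.05, with a median of 0.38 that ranged from 0.10 to 0.52 with each mouse left out and was lowest without WT 3. Gfap, the intermediate filament of astrocytes, was at 698, 424, 317 and 526 CPM in WT mice and at 2099, 865, 1472 and 711 CPM in hTau.P301S + NR mice. The lowest treated mouse, hTau.P301S + NR 4, was just above WT 1, and the log2 fold change was 1.39 (SE 0.36, edgeR adjusted p = 0.45). Serpina3n, a protease inhibitor induced in reactive astrocytes, had a log2 fold change of 1.45 (SE 0.36), and its groups overlapped, with hTau.P301S + NR 4 at 43.6 CPM and WT 1 at 53.2 CPM. WT + NR 1 was at 2211 CPM for Gfap, against 506 to 618 CPM in the other WT + NR mice. In the other 8 mice the list median was 0.11, with 1 of 23 genes higher and 0 lower at an unadjusted p under 0.05. Without the 2 libraries it was 0.03, with 5 genes higher and 1 lower.

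Lysosomal and myelin genes leaned the same way, beside 3.52% of all genes that were higher at an unadjusted p under 0.05. Of 28 lysosomal genes, 22 had a higher estimate and 4 were higher at an unadjusted p under 0.05, with a median of 0.15, or 0.08 without WT 3. Ctss, a cathepsin abundant in microglia, was at 75.3, 88.3, 66.5 and 65.7 CPM in WT mice and at 178, 106, 124 and 113 CPM in hTau.P301S + NR mice (log2 fold change 0.82, SE 0.18). All 13 oligodendrocyte and myelin markers had a higher estimate, 2 of them at an unadjusted p under 0.05, namely Ermn with 0.78 (SE 0.31) and Fa2h, a lipid hydroxylase of myelin, with 0.67 (SE 0.28), and the median was 0.56, or 0.31 without WT 3. The summed myelin level ran from 2992 to 8669 CPM in WT mice, lowest in WT 3 for Ermn and Fa2h, and from 7579 to 9982 CPM in hTau.P301S + NR mice. The myelin median was 0.27 in the other 8 mice, or 0.02 without the 2 libraries. The lysosomal median was 0.29 in the other 8 mice, with 0 genes at an unadjusted p under 0.05. Without the 2 libraries it was 0.02, with 15 higher and 13 lower estimates and 4 genes higher at that limit.

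Genes of the major histocompatibility complex (MHC), which present peptides to T cells, lay lower in hTau.P301S + NR mice. Of 20 H2 genes tested, 18 had a lower estimate, 5 were lower and 0 higher at an unadjusted p under 0.05 (backgrounds of 4.97% and 3.52%), and the median was -0.76. H2-D1, a class I heavy chain, was at 77.7, 89.3, 41.9 and 73.8 CPM in WT mice and at 35.9, 32.5, 31.2 and 39.0 CPM in hTau.P301S + NR mice, without overlap (log2 fold change -1.03, SE 0.21, edgeR adjusted p = 0.25). H2-Q6 had -1.91 (SE 0.45), H2-Q7 -2.30 (SE 0.65) and H2-K2 -1.77 (SE 0.41), all at low levels. In the other 8 mice, 1 of 19 H2 genes was lower and 0 higher at an unadjusted p under 0.05, where 3.95% of all genes were lower, with a median of -0.05. Without the 2 libraries, 18 of 20 had a lower estimate and 9 were lower at that limit, where 6.72% of all genes were, with a median of -0.88, so that the H2 values in those mice rested on leaving these libraries out. H2 genes are members of a multigene family and can share reads.

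The H2 genes belong to a stretch of chromosome 17 that was looked at after its values were seen. In chr17:33000000-38000000, 138 genes were tested, 19 were lower and 4 higher at an unadjusted p under 0.05, which is 16.7% of them against 8.5% of all genes. Lower without overlap were 18, or 13.0%, against 2.77% of all genes. Windows with larger shares existed, as the 1-Mb window from chr17:33000000, with 29.4% at an unadjusted p under 0.05, ranked 9 among 566. Rps18, the gene of a small-subunit ribosomal protein, was at 215, 234, 122 and 130 CPM in WT mice and at 46.3, 66.8, 45.9 and 81.4 CPM in hTau.P301S + NR mice (log2 fold change -1.54, SE 0.27, edgeR adjusted p = 0.14). Ring1, a polycomb subunit, was at 31.4, 33.2, 27.5 and 31.1 CPM in WT mice and at 19.4, 20.1, 18 and 21.1 CPM in hTau.P301S + NR mice (log2 fold change -0.64, SE 0.11, edgeR adjusted p = 0.12). C4b and the DEG Gm7335, both higher, lie in the same stretch.

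A stretch of chromosome 1, also chosen after seeing values, held immune receptor genes with higher estimates. In chr1:170958617-172478575, from Fcgr2b to Slamf9, 43 genes were tested and 8 were higher and 1 lower at an unadjusted p under 0.05, which is 20.9% of them against 8.5% of all genes. Stretches with larger shares existed, as 6 of 566 windows of 1 Mb with at least 10 tested genes had over 30% at that limit. Cd84, a receptor of the signalling lymphocyte activation family, was at 2.52, 2.41, 2.26 and 2.81 CPM in WT mice and at 10.9, 5.68, 6.27 and 6.65 CPM in hTau.P301S + NR mice (log2 fold change 1.56, SE 0.25, edgeR adjusted p = 0.091). Cd48 and Ly9, of the same family, had 1.95 (SE 0.37) and 1.72 (SE 0.37).

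Among the uncalled genes with lower values, the hemoglobin genes Hbb-bs and Hba-a1 were among those with the smallest unadjusted p. Hbb-bs, a beta-globin gene, was at 24.2, 7.72, 6.42 and 49.3 CPM in WT mice and at 1.12, 0.782, 0.616 and 1.02 CPM in hTau.P301S + NR mice, without overlap (log2 fold change -4.61, SE 0.70, edgeR adjusted p = 0.076). Hba-a1, an alpha-globin gene, had -4.37 (SE 0.71). The 5 red blood cell markers summed to between 13.2 and 87.8 CPM in WT mice and to between 1.40 and 2.73 CPM in hTau.P301S + NR mice. Among WT mice, WT 4 had the most Hbb-bs. Genes called by DESeq2 on the same mice included Hbb-bs, Hba-a1 and Clec7a.

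Splicing factor genes, the group of RNA-processing genes that the study examined, leaned slightly lower. Of 33 SR protein and hnRNP genes, 26 had a lower estimate and 7 were lower at an unadjusted p under 0.05 against 4.97% of all genes, with a median of -0.14. Srsf9, an SR protein, was at 46.1, 45.1, 45.9 and 44.8 CPM in WT mice and at 33.2, 35.2, 31.7 and 28.5 CPM in hTau.P301S + NR mice, without overlap (log2 fold change -0.50, SE 0.10, edgeR adjusted p = 0.24). Of 50 core spliceosome genes, 7 were lower and 0 higher at that limit, with a median of -0.09, which was -0.01 without WT 2 and 0.01 without both WT 2 and hTau.P301S + NR 4. Among them, the Sm protein gene Snrpf had -0.82 (SE 0.26), the Lsm complex gene Lsm7 had -0.48 (SE 0.15) and the U1 component gene Snrnp70 had -0.62 (SE 0.21). Of 25 neuronal splicing regulators 17 had a higher estimate, with a median of 0.12, or 0.07 without WT 2 and 0.02 with a gene length trend removed. Among 10 nuclear long noncoding RNAs, 9 had a lower estimate, with a median of -0.93, or -0.58 without WT 4. Mirg, a maternally expressed microRNA host gene, had -1.16 (SE 0.26).

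Genes of oxidative phosphorylation and translation mostly had lower estimates. Of all genes, 47.3% had a higher estimate, and 4.97% were lower at an unadjusted p under 0.05. Of 82 nuclear genes of respiratory chain subunits, 80 had a lower estimate and 25 were lower at an unadjusted p under 0.05, with a median of -0.36, or -0.19 without WT 2 and -0.23 with the length trend removed. Ndufa1, a subunit of complex I, was at 65.6, 51.1, 34.0 and 28 CPM in WT mice and at 15.0, 25.4, 15.1 and 24.2 CPM in hTau.P301S + NR mice (log2 fold change -1.16, SE 0.30). Uqcr11, of complex III, was at 123, 114, 70.8 and 54.3 CPM in WT mice and at 30.6, 49.7, 36.2 and 53.8 CPM in hTau.P301S + NR mice (log2 fold change -1.09, SE 0.28). In both genes WT 1 and WT 2 were the high WT mice. Of 84 cytosolic ribosomal protein genes, 80 had a lower estimate and 13 were lower at that limit, with a median of -0.39, or -0.12 without WT 2 and -0.26 with the length trend removed. In contrast, 2 of the 54 ribosomal protein pseudogenes tested, Rps26-ps1 and Rpsa-ps10, were DEGs with higher levels, and the median of the 54 was -0.28, or 0.03 without WT 2. The respiratory chain median had the opposite sign in the other 8 mice, 1.30, with 2 of 82 genes higher and 0 lower at an unadjusted p under 0.05. Without the 2 libraries it was -0.15, with 2 genes higher and 1 lower. The cytosolic ribosomal protein median also had the opposite sign in the other 8 mice, 1.62, with 1 of 84 genes higher and 2 lower at that limit. Without the 2 libraries this median was -0.26, with 0 genes higher and 7 lower. For the ribosomal protein pseudogenes the medians were 1.57 and -0.16.

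NAD-related genes showed small differences. At an unadjusted p under 0.05, 4.97% of all genes were lower and 3.52% higher. Of 17 genes of NAD synthesis, salvage and transport, 2 were lower and 0 higher at an unadjusted p under 0.05, with a median of -0.15, or -0.09 without WT 1, hTau.P301S + NR 2 or hTau.P301S + NR 3. Nmnat3, the mitochondrial enzyme of the last step of NAD synthesis, was at 3.78, 4.42, 2.42 and 2.54 CPM in WT mice and at 1.43, 1.98, 1.57 and 2.04 CPM in hTau.P301S + NR mice (log2 fold change -0.90, SE 0.28, edgeR adjusted p = 0.51). Of 11 NAD-consuming enzyme genes, 3 were lower and 0 higher at that limit, with a median of -0.28, or -0.16 without WT 4. These 3 were the sirtuin genes Sirt6, a nuclear deacylase, with -0.67 (SE 0.18), and Sirt4 and Sirt3 of mitochondria, with -0.57 (SE 0.19) and -0.42 (SE 0.16). Sirt6 was at 12.3, 14.2, 14.0 and 17.2 CPM in WT mice and at 9.09, 7.40, 8.17 and 11.6 CPM in hTau.P301S + NR mice. In the other 8 mice Sirt6 had 0.19, Sirt3 0.46 and Sirt4 -0.57, and without the 2 libraries 0.15, -0.21 and -0.52.

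Few synaptic genes reached an unadjusted p under 0.05, where 3.52% of all genes were higher and 4.97% lower. Counts this small do not set these lists apart from all genes. Of 34 genes of glutamate receptors and postsynaptic scaffolds, 1 was higher and 0 lower at an unadjusted p under 0.05, with a median of 0.05, or -0.07 without WT 2. Of 21 genes of GABA receptors, synthesis and transport, 2 were higher, with a median of 0.22, or 0.13 without WT 1, among them the receptor subunit gene Gabra4 with 0.33 (SE 0.11). Of 29 genes of synaptic vesicle release, 1 was higher, Rims2, an active zone scaffold gene, which was at 71.9, 77.3, 83.7 and 81.5 CPM in WT mice and at 109, 97.7, 109 and 107 CPM in hTau.P301S + NR mice (log2 fold change 0.43, SE 0.09, edgeR adjusted p = 0.33). Of 22 Tau kinase and phosphatase genes, 0 were at an unadjusted p under 0.05 and the median was 0.05, or -0.01 without hTau.P301S + NR 4. Of 20 activity-induced immediate early genes, 15 had a lower estimate and 2 were at that limit.

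Markers of other cell types in the dissected tissue varied widely between mice of a group, and none passed the adjusted test. All 8 striatal markers had a lower estimate in hTau.P301S + NR mice, with a median of -1.02, and all 11 choroid plexus markers had, with a median of -1.36, each with 0 genes at an unadjusted p under 0.05. The striatal median was 1.67 without WT 2 and the choroid plexus median 0.46 without WT 1. All 7 thalamic markers had a higher estimate, with a median of 0.64, or 0.35 without hTau.P301S + NR 4, and 0 at that limit. Of 9 endothelial and pericyte markers, 2 were lower, among them Cldn5, a tight junction protein of brain vessels, at 34.5, 44.1, 44.9 and 53.6 CPM in WT mice and at 22.6, 29.5, 22.3 and 31.3 CPM in hTau.P301S + NR mice (log2 fold change -0.74, SE 0.17). Leaving out WT 2 and hTau.P301S + NR 4, the mice with the most striatal marker RNA, left 8 DEGs, all up-regulated and all among the 17. With the presence of Ddx3y as a covariate, 10 genes were called, 8 of them among the 17. Both alternatives were chosen after seeing the data.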

How the data were processed

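Hippocampal poly(A) RNA of 16 mice was sequenced after NEBNext Ultra library preparation. The authors aligned reads to mm10 with STAR and deposited gene counts made with RSEM, as whole numbers. FastQC and Trim Galore are named in the submitters' processing notes, versions not given in the sources used here. Annotation and sequences came from GENCODE M21 (GRCm38), which held 54409 of the 54532 genes. No column of values was left unused.

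Counts of the 4 hTau.P301S + NR and 4 WT mice were filtered with filterByExpr, scaled by TMM and tested with edgeR 4.0.16's quasi-likelihood test in R 4.3.3, with Benjamini-Hochberg adjustment over all genes tested. CPM values used the TMM-scaled library size. The study used DESeq2, run here as version 1.42.0 as an alternative. The other pairs of groups were tested in the same way. Shares within a pair divided the pseudogene's CPM by the summed CPM. Parents of pseudogenes were found by shared 21-base words and aligned to their transcripts.

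Named genes were every DEG, the Eva1c and heat shock protein 70 genes with Mapt and Thy1, up to 4 members of each list by smallest p, up to 12 further non-overlapping genes a direction of at least 1 CPM, and parents or neighbours of DEGs; some that the rule names are not reported here. Members and lists were chosen with earlier results of these data known. On simulated counts for this comparison (16686 genes), 1.52% of genes changed by 0.5 on the log2 scale were called, 38.8% of those changed by 1 and 79.1% of those changed by 2, and 0.0607% of unchanged genes. No 2 libraries of a group agreed within counting noise. Alternatives covered the tool, normalization, filter, gene length, replicate block and each mouse left out.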

Additional observations from a re-analysis of the deposited data

Results flagged for a closer look

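Over 135 groups of 4 mice (68 genes), a mouse lay far from the other 3 of its group in 6, where chance gives about 5% of groups. Gapdh was at 78.5 CPM in WT 1 and at 5.71 to 9.22 CPM in the other WT mice. Gm19963 was at 4.59 CPM in hTau.P301S + NR 3 and at 2.76 to 2.91 CPM in the other treated mice, below which all WT mice lay. Mapt was at 369 CPM in WT 2, against 438 to 447 CPM in the other WT mice. Cst7 was at 4.66 CPM in hTau.P301S + NR 1, against 1.72 to 2.04 CPM. Serpina3n was at 53.2 CPM in WT 1, against 32.9 to 36.1 CPM. Rims2 was at 97.7 CPM in hTau.P301S + NR 2, against 107 to 109 CPM. WT 2 was also the mouse with the most striatal marker RNA, and the part of this in its Mapt level was not tested.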

How the results depend on the processing

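Against the 17 DEGs of the 8-mouse edgeR test, DESeq2 gave 118 on the same mice and 36 with all 16 mice in a single fit, and edgeR on 16 mice gave 6, of which 5 were among the 17. Leaving out each mouse in turn gave 9 to 23 genes, the replicate block 11 (9 of them among the 17), Ddx3y as a covariate 10, leaving out WT 2 and hTau.P301S + NR 4 together 8, and summed pseudogene and parent pairs 1. Same-numbered WT and hTau.P301S + NR mice were not paired by the labels, and their deviations correlated at 0.08, 0.33, 0.44 and -0.06, so that the block was not used. Of the 17, no gene changed direction in the alternatives run, Gm13394, Gm9855, Rps26-ps1, Gm10020, Rpsa-ps10 and Gm7292 kept the call in each alternative on 8 or fewer mice that gave an adjusted p, apart from the summed pairs, and Mrpl48-ps lost it in 13 of 19. hTau.P301S relative to WT + NR mice gave 1 gene, 85 with DESeq2, 1 to 10 with each mouse left out (10 without hTau.P301S 1), and 10 without both outlying libraries. DESeq2 gave 58 genes for hTau.P301S + NR relative to WT + NR mice (edgeR 9), 115 for hTau.P301S relative to WT mice (edgeR 1), 283 for NR in hTau.P301S mice (edgeR 1) and 0 for NR in WT mice (edgeR 0, with 132 genes at an unadjusted p under 0.05). The cause of these differences was not tested. Of 495 recomputed list medians, 14 moved by more than the spread between mice and 30 changed sign. With 4 mice a group, changes near 0.5 on the log2 scale were largely below detection, as the simulated counts show.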

Other observations

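Other gene groups held few genes at an unadjusted p under 0.05 in hTau.P301S + NR relative to WT mice, and no member passed the adjusted test. Of all genes, 3.52% were higher and 4.97% lower at that limit, so that counts this small do not set these groups apart. Of 26 interferon-stimulated genes, 0 were higher and 1 lower at that limit, with a median log2 fold change of 0.18, or 0.00081 without WT 3. Of 18 circadian clock genes 0 were, with a median of -0.07, or 0.08 without WT 4. Among 22 cholesterol synthesis genes, 18 had a lower estimate and 1 was at that limit, with a median of -0.07, or -0.01 without WT 3. Of 21 heat shock and cold-inducible protein genes 2 were lower, of 23 mitophagy and mitochondrial biogenesis genes 1 was lower, and of 30 mitochondrially encoded genes 2 were higher and 1 lower. Of 29 imprinted genes 3 were higher and 1 lower.

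Frem3, an extracellular matrix gene, had the smallest unadjusted p among uncalled genes with higher values. It was at 1.53, 1.23, 2.0 and 1.03 CPM in WT mice and at 5.78, 3.86, 4.98 and 6.99 CPM in hTau.P301S + NR mice, without overlap, with a log2 fold change of 1.90 (SE 0.29, edgeR adjusted p = 0.079). In the other 8 mice it was at 2.90, 3.07, 7.57 and 4.65 CPM in hTau.P301S mice and at 4.10, 3.44, 3.80 and 2.99 CPM in WT + NR mice, with overlap and a log2 fold change of 0.33, or 0.56 without hTau.P301S 1 and WT + NR 1.

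Principal cell markers of the hippocampus, 6 genes for each cell type, had median log2 fold changes of -0.34 for CA1 pyramidal cells, 0.41 for CA3 pyramidal cells and 0.27 for dentate granule cells, with 0 genes at an unadjusted p under 0.05. The CA1 median was -0.17 without WT 3, the CA3 median 0.26 without hTau.P301S + NR 1 and the dentate median -0.06 without WT 2 and -0.10 without hTau.P301S + NR 3.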
